A study of Mus musculus with 6 samples.

Results

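The actin cytoskeleton and the smooth muscle contractile apparatus were examined through 10 genes taken by symbol from the 55401 genes of the count files. Of these, 5 encode contractile proteins of smooth muscle (*Acta2*, *Tagln*, *Cnn1*, *Myl9* and *Myh11*) and 5 encode actins and actin-binding proteins that most cells use (*Actb*, *Actg1*, *Actn1*, *Tpm1* and *Flna*). Every member passed the filter on low counts, as did 16807 genes in all. Bulk RNA-seq libraries of subcutaneous white adipose tissue (scWAT) came from 3 control and 3 mutant male mice, 8 weeks old, kept at room temperature on normal chow, with 1 library per mouse. The mutants carried floxed *Yap* and *Taz* alleles and a Cre gene (Yapfl/fl/Tazfl/fl;AdipoqCre, termed YT-AKO). The controls, called WT in the labels, are termed YT-FF in the methods. They are taken here as mice with the floxed alleles and without Cre, which the methods do not spell out. The floxed *Yap1* and *Taz* lines both had a mixed C57BL/6 and 129 background, and the *Adipoq* Cre line was C57BL/6. The *Adipoq* promoter drives Cre in mature adipocytes, so the vessels, fibroblasts and immune cells of the tissue keep both genes. The comparison asks which actin and smooth muscle transcripts of scWAT differ between these genotypes.

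Actin monomers assemble into filaments that shape the cell, and myosin pulls on these filaments when its light chain is phosphorylated. In smooth muscle, a dedicated actin, myosin heavy chain and regulatory light chain make up the contractile filaments, and SRF with its cofactors myocardin and MRTF drives many of these genes from CArG boxes in their promoters. YAP and TAZ respond to tension in the same cytoskeleton and act through TEAD factors, which recognize the letters CATTCC. In adipose tissue, smooth muscle cells surround the vessels, while adipocytes keep a thin cortex of actin beneath the membrane around the lipid droplet.

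Promoter windows from RefSeq (build GRCm38.p6) were searched for both motifs because the members are known as SRF-driven genes. Windows were found for 7 of the 10 members, *Acta2*, *Cnn1*, *Myl9*, *Actg1*, *Actn1*, *Tpm1* and *Flna*. In the 250 bases upstream of the start site in the table, a CArG box with at most 1 of its 6 core bases other than A or T was found in 3 of 7 members, and the same search found it in 8.60% of 32817 windows. The stricter form, with A or T at every core base, was found in 2 of 7 members and in 1.47% of windows. The 30-base stretches around these boxes are shown 5′ to 3′ on the strand of the gene, with the box in capitals.
Acta2, chr19:34255438-34255467, minus strand: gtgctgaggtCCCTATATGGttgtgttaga
Acta2, chr19:34255388-34255417, minus strand: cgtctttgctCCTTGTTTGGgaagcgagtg
Myl9, chr2:156775293-156775322, plus strand: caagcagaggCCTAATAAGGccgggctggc
Myl9, chr2:156775355-156775384, plus strand: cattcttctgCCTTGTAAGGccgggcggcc
Actg1, chr11:120348566-120348595, minus strand: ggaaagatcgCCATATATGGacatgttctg
The first *Myl9* box and the *Actg1* box have A or T at every core base, and they lie 161 and 90 bases upstream of the start site. The *Acta2* boxes lie 84 and 34 bases upstream of the start site of its window. The letters CATTCC, searched on both strands, were present in 3 of 7 members and in 12.6% of windows. They stand in capitals in the stretches that follow, where GGAATG is the same motif read on the opposite strand.
Acta2, chr19:34255502-34255531, minus strand: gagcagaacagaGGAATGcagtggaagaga
Tpm1, chr9:67049252-67049281, minus strand: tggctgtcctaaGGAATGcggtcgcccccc
Flna, chrX:74246663-74246692, minus strand: ggcgttgtggggCATTCCaacgggaggggc
Neither search found a match in the *Cnn1* and *Actn1* windows. The start sites of the windows can differ from the gene ends used for the counts. All stretches shown for *Acta2*, *Tpm1* and *Flna* lie inside the gene spans given below, not upstream of them. No binding was measured, and a match is a description of the letters.

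The libraries were of similar depth, with 17740987 to 21838493 counted fragments, of which 0.409% to 0.496% fell on the 10 members. The YT-AKO 2 library stood apart. Its counts differed from the other libraries of its group by a chi-square per degree of freedom of 161 and 177, against 13.0 to 36.0 for all other pairs within a group, and its TMM scaling factor was 0.777 against 0.954 and 0.955. Of the targeted genes, *Yap1* had a log2 fold change of -0.98 and *Wwtr1*, which encodes TAZ, one of 0.89 (edgeR with Benjamini-Hochberg adjustment, adjusted p = 0.0179 and 0.0220). The RNA of the second thus went against the label, and the mutant libraries are called by their label. By immunoblot, the paper found less YAP and TAZ protein in YT-AKO scWAT. The counts here are RNA, summed over all exons and over all cells of the tissue. The summed level of 8 adipocyte markers was higher in the YT-AKO-labelled libraries (21291 to 35109 CPM, counts scaled to library size) than in YT-FF (12334 to 17866 CPM). The most abundant, *Fabp4*, went from a mean of 5205 to 13197 CPM. Of the 8 markers, 3 were called higher and 5 were not called. *Adipoq* and *Plin1* were among the latter and overlapped between the groups. By RT-qPCR, the paper found adipocyte identity genes unchanged in this tissue. Those values are relative to *Rplp0*, which had a log2 fold change of 0.75 in these counts and was not called, so they are on another scale than CPM.

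Of the 10 members, 1 rose and 1 fell at an adjusted p under 0.05 (edgeR, Benjamini-Hochberg over all tested genes). *Myl9*, the regulatory light chain of smooth muscle and non-muscle myosin, was higher in the YT-AKO-labelled libraries, and *Actn1*, the actin crosslinker α-actinin-1, was lower. Among all tested genes, 21.6% were called in either direction, 12.6% as higher and 9.01% as lower, so the 20% of the members called is close to the share of all genes. The median log2 fold change was 0.62 for the smooth muscle members, 0.24 for the cytoskeletal members and -0.02 for all tested genes. In bulk tissue, fewer cells of a type and less RNA per cell cannot be told apart, so each value below is a level in the whole tissue. Levels in CPM were scaled with the TMM factors. Levels in TPM were divided by the summed exon length of the gene and scaled to the same total in every library, without TMM factors.

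**Figure D1:**
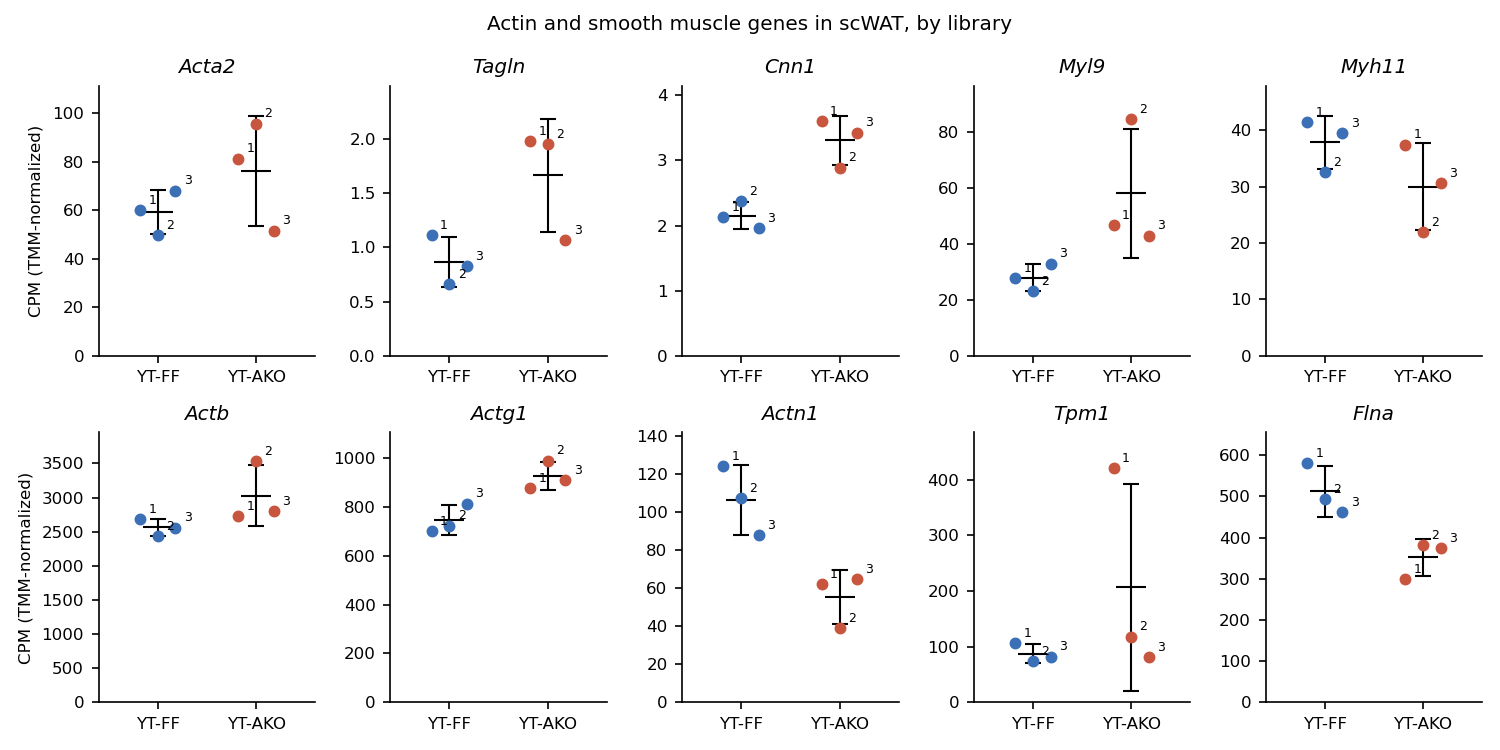
TMM-normalized CPM (y axis, linear, from 0) of the 10 members in YT-FF libraries (blue) and YT-AKO-labelled libraries (red), with replicate numbers beside the points and the mean ± SD of 3 libraries as bars. *Myl9* and *Actn1* are the members past the test, and the single high *Tpm1* point is YT-AKO 1.

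*Myl9* (ENSMUSG00000067818, chromosome 2, 156775420 to 156781658 of mm10) had 27.9, 23.1 and 33.0 CPM in YT-FF 1 to 3. In the YT-AKO-labelled libraries 1 to 3 it had 46.7, 84.6 and 43.0 CPM. The groups did not overlap, and YT-AKO 2 was far above the rest. The mean rose from 28.0 ± 4.95 to 58.1 ± 23.0 CPM (SD, n = 3), a log2 fold change of 1.05 (SE 0.285, edgeR with Benjamini-Hochberg adjustment, adjusted p = 0.0389). *Myl9* is the shortest member, with 1162 bp of exons, and with a correction for gene length its log2 fold change was 0.60 (edgeR, Benjamini-Hochberg adjusted p = 0.0838). In TPM the groups overlapped, with 92.3, 78.5 and 102.4 in YT-FF and 112.2, 127.6 and 100.5 in the YT-AKO-labelled libraries. The call was also lost without any one of the YT-FF libraries (adjusted p = 0.142, 0.158 and 0.0744 without YT-FF 1, 2 and 3, edgeR with Benjamini-Hochberg adjustment) and held without YT-AKO 2, at a log2 fold change of 0.68 (adjusted p = 0.0147).

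*Actn1* (ENSMUSG00000015143, chromosome 12, 80167547 to 80260371) links actin filaments side by side in stress fibres and at focal adhesions. It had 124, 107 and 87.7 CPM in YT-FF 1 to 3 and 62.0, 38.9 and 64.9 CPM in the YT-AKO-labelled libraries 1 to 3. All mutant-labelled libraries lay below all YT-FF libraries, with YT-AKO 2 the lowest. The mean fell from 106 ± 18.2 to 55.3 ± 14.2 CPM (SD, n = 3), a log2 fold change of -0.95 (SE 0.236, edgeR with Benjamini-Hochberg adjustment, adjusted p = 0.0321). With the length correction, the change was -0.78 (adjusted p = 0.0404, edgeR with Benjamini-Hochberg adjustment), and with the length correction and without YT-AKO 2 it was -0.63 (adjusted p = 0.0231). Without YT-FF 1, 2 or 3 the adjusted p was 0.136, 0.127 and 0.0571 (edgeR, Benjamini-Hochberg), with log2 fold changes of -0.82 to -1.06. The counted exons share 8.15% of their bases with Gm47766 and Gm47767, and fragments lying in more than 1 gene were left out of the deposited counts.

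The thin filament members of smooth muscle had higher mean CPM in the YT-AKO-labelled libraries, but none passed the test. *Acta2*, smooth muscle α-actin (ENSMUSG00000035783, chromosome 19, 34241090 to 34255590), had 59.9, 49.7 and 68.1 CPM in YT-FF and 81.2, 95.7 and 51.6 CPM in the YT-AKO-labelled libraries. YT-AKO 3 lay among the YT-FF libraries, so the groups overlapped, and the log2 fold change was 0.36 (SE 0.246, edgeR with Benjamini-Hochberg adjustment, adjusted p = 0.296). *Cnn1*, which encodes the actin-binding protein calponin-1 (ENSMUSG00000001349, chromosome 9, 22099216 to 22109630), was scarce and was counted 50, 54 and 38 times in YT-FF against 62, 49 and 58 times in the YT-AKO-labelled libraries. In CPM it went from 2.15 ± 0.209 to 3.31 ± 0.372 (SD, n = 3) with no overlap, and edgeR gave a log2 fold change of 0.62 (Benjamini-Hochberg adjusted p = 0.146).

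*Tagln*, or transgelin (SM22α), an actin-binding protein of smooth muscle (ENSMUSG00000032085, chromosome 9, 45929619 to 45936058), was scarce too and was counted 26, 15 and 16 times in YT-FF against 34, 33 and 18 times in the YT-AKO-labelled libraries. These counts cover only a part of the gene, because 67.9% of its exon bases also lie in exons of Gm48529 or Pcsk7 and fragments in more than 1 gene were not counted. Its log2 fold change of 0.94 (SE 0.439) had an adjusted p of 0.147 (edgeR, Benjamini-Hochberg), and the groups overlapped in CPM. The level of *Tagln* and its place among the members are therefore uncertain. Of its neighbours, Gm48529 was counted 25, 54 and 28 times in YT-FF against 23, 34 and 25 times in the YT-AKO-labelled libraries, with a log2 fold change of -0.02.

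*Myh11*, the smooth muscle myosin heavy chain (ENSMUSG00000018830, chromosome 16, 14194535 to 14291372), was the smooth muscle member with a lower mean. It had 41.4, 32.6 and 39.4 CPM in YT-FF and 37.4, 21.9 and 30.7 CPM in the YT-AKO-labelled libraries, which overlapped. Its log2 fold change was -0.33 (SE 0.220, edgeR with Benjamini-Hochberg adjustment, adjusted p = 0.283). Its exons are 7599 bp long, and with the length correction its log2 fold change was -0.032 (SE 0.178), or 0.074 (SE 0.149) without YT-AKO 2 as well, so its direction is not settled by these libraries.

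The actins of the cytoskeleton were by far the most abundant members. *Actb*, β-actin (ENSMUSG00000029580, chromosome 5, 142903115 to 142906754), had 2688, 2441 and 2560 CPM in YT-FF and 2734, 3539 and 2805 CPM in the YT-AKO-labelled libraries. YT-AKO 2 stood above the others, YT-AKO 1 and 3 lay just above the highest YT-FF library, and the log2 fold change was 0.24 (SE 0.207, edgeR with Benjamini-Hochberg adjustment, adjusted p = 0.408). *Actg1*, γ-actin (ENSMUSG00000062825, chromosome 11, 120345690 to 120348542), had 700, 723 and 812 CPM in YT-FF and 876, 987 and 909 CPM in the YT-AKO-labelled libraries, with no overlap. Its log2 fold change was 0.31 (SE 0.174, edgeR with Benjamini-Hochberg adjustment, adjusted p = 0.213). The direction of both flipped with scaling by library totals alone, to -0.10 for *Actb* and -0.02 for *Actg1*, a scaling that moved the median of all tested genes to -0.34. Of all 50-base words in its exons, *Actg1* shares 37.4% with other genes, mostly the copy Gm12715, and *Actb* shares 9.12%, so the counts of *Actg1* in particular are uncertain, since fragments with several alignments were left out.

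*Flna*, filamin A, crosslinks actin into a network and ties it to integrins (ENSMUSG00000031328, chromosome X, 74223461 to 74249820). It had 581, 492 and 462 CPM in YT-FF and 300, 381 and 374 CPM in the YT-AKO-labelled libraries, and every mutant-labelled library was below every YT-FF library. The log2 fold change of -0.54 (SE 0.187) missed the threshold in edgeR (Benjamini-Hochberg adjusted p = 0.0704) and passed it in DESeq2 (adjusted p = 0.0257) and in edgeR without YT-AKO 2, where it was -0.60 (adjusted p = 0.0234). *Flna* has the longest exons of the members, 9457 bp, and with the length correction its log2 fold change was -0.10 (edgeR, Benjamini-Hochberg adjusted p = 0.753).

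*Tpm1* encodes α-tropomyosin, which lies along the actin filament in smooth, skeletal and non-muscle cells through different isoforms (ENSMUSG00000032366, chromosome 9, 67022590 to 67049406). It had 106, 74.6 and 82.3 CPM in YT-FF and 420, 118 and 81.8 CPM in the YT-AKO-labelled libraries. YT-AKO 1 alone was far above the rest, and YT-AKO 3 was at the level of YT-FF 3. The log2 fold change of 1.24 (SE 0.563, edgeR with Benjamini-Hochberg adjustment, adjusted p = 0.138) was 0.20 without YT-AKO 1. The summed level of 13 skeletal muscle markers was also highest in YT-AKO 1, at 491, 130 and 189 CPM in YT-FF and 3715, 546 and 213 CPM in the YT-AKO-labelled libraries. YT-AKO 1 was also the highest library for skeletal α-actin, *Acta1*, at 1109 CPM, and for β-tropomyosin, *Tpm2*, at 242 CPM, whereas the marker *Tnnc2* was at or near 0 in every library. In YT-AKO 3, *Acta1* made up 198 of the 213 CPM of the sum. The markers *Myh4* (2.90 CPM) and *Tnnt3* (2.72 CPM) were there below every YT-FF library, so the markers did not follow *Tpm1* in YT-AKO 3. The part of skeletal muscle in the *Tpm1* value was not tested, and the counts are summed over all isoforms.

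**Figure D2:**
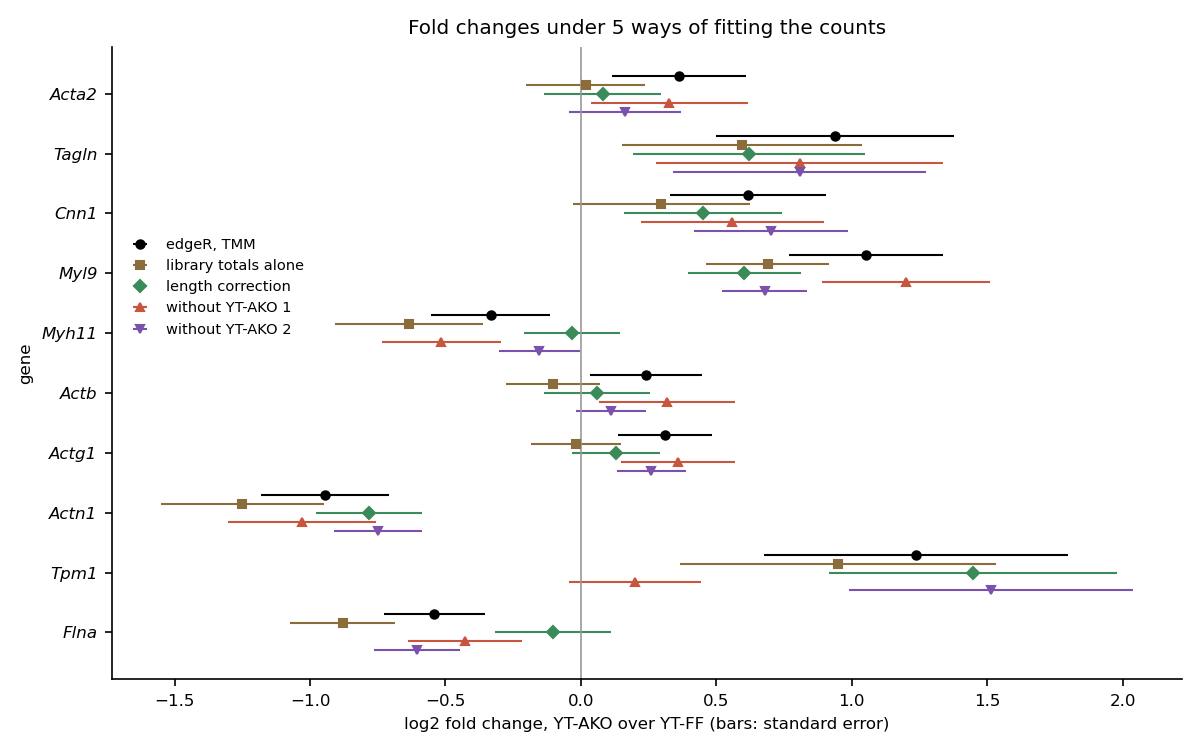
Log2 fold change of each member (x axis, YT-AKO over YT-FF, bars are standard errors) in the edgeR fit with TMM scaling and in 4 alternatives. *Actn1* lies below 0 in all 5 fits, *Tpm1* drops to 0.20 without YT-AKO 1, and *Flna* moves to -0.10 with the length correction.

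Counts per gene were then compared with gene length. Genes are not independent replicates, so the following are descriptions. The rank correlation (Spearman) of exon length with log2 fold change was -0.38 over all 16807 tested genes. Across the 10 members it was -0.53, and across the 9 members without *Tpm1*, left out after its values were seen, it was -0.85. All of these genes share the same 6 libraries. The members with a positive log2 fold change other than *Tpm1* have exons of 1162 to 2736 bp, and the members with a negative one have exons of 5533 to 9457 bp, around a median of 3888 bp over all tested genes. With the length correction, the rank correlation over all genes was -0.07. The part of gene length in the members' fold changes was tested only through this correction, which ended the call of *Myl9* and left that of *Actn1*.

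**Figure D3:**
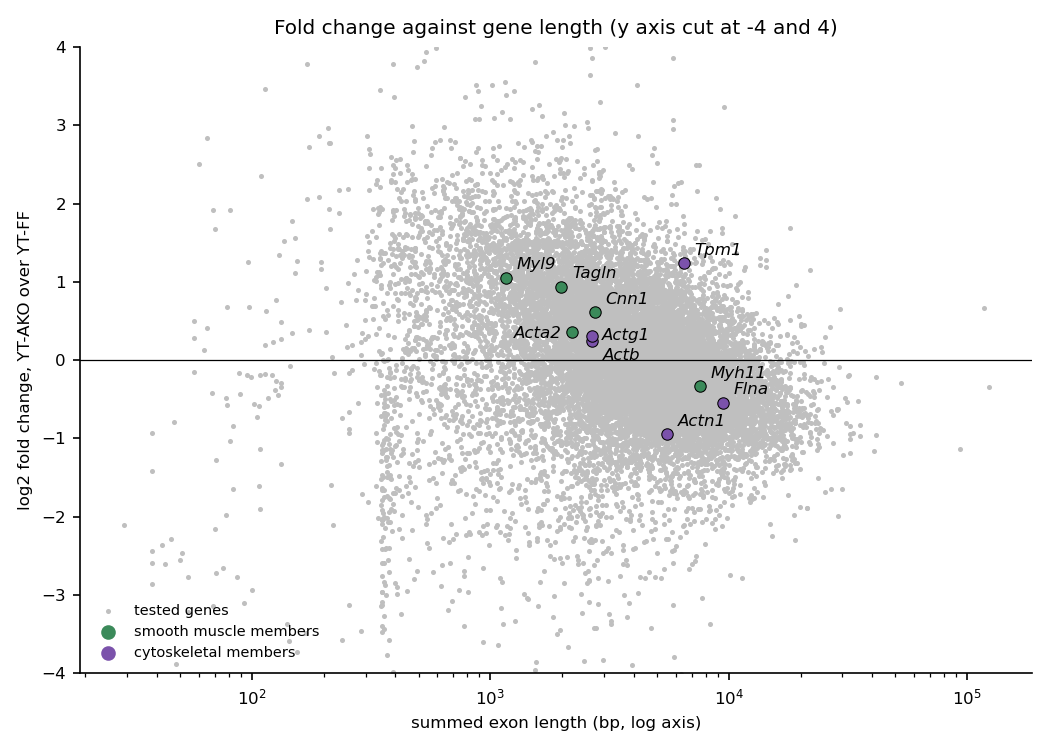
Log2 fold change (y axis, YT-AKO over YT-FF) against summed exon length in bp (x axis, log scale) for the tested genes (grey), the smooth muscle members (green) and the cytoskeletal members (purple). The short member *Myl9* sits at 1.05 and the long members *Myh11*, *Flna* and *Actn1* lie below 0, with *Tpm1* the exception at 1.24.

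TPM gave another picture of direction. The length of a gene is the same in every library, so the shift from CPM to TPM lies in the scaling of whole libraries. In TPM, 7 of 10 members had a lower mean in the YT-AKO-labelled libraries, while in TMM-normalized CPM 7 of 10 had a higher mean. The median log2 ratio of TPM means over all tested genes was -0.66, so directions in TPM are read against that shift. Groups did not overlap in CPM for 6 members, *Cnn1*, *Myl9*, *Actb*, *Actg1*, *Actn1* and *Flna*, against 51.5% of all tested genes. In TPM they did not overlap for 5 members, *Myh11*, *Actb*, *Actg1*, *Actn1* and *Flna*, against 62.0% of all genes. All 5 were lower, that is 5 of 10 members, against 54.5% of all tested genes that did not overlap and were lower. Of the 10421 tested genes with no overlap in TPM, 9157 were lower. *Actn1* went from 73.4 ± 14.8 to 25.2 ± 11.1 TPM (SD, n = 3) and *Flna* from 206 ± 29.98 to 88.9 ± 18.5 TPM, log2 ratios of -1.54 and -1.21, both below the shift of all genes. *Actb*, at -0.45, and *Actg1*, at -0.35, lay above that shift. *Myh11* had a log2 ratio of -0.93, from 18.9 ± 2.01 to 9.92 ± 4.43 TPM.

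Per length, the order of the levels in YT-FF was *Actb* (3633 ± 207 TPM), *Actg1* (1063 ± 46.2), *Flna* (206 ± 29.98), *Acta2* (102 ± 11.5), *Myl9* (91.1 ± 12.01), *Actn1* (73.4 ± 14.8), *Tpm1* (51.3 ± 9.93), *Myh11* (18.9 ± 2.01), *Cnn1* (2.999 ± 0.422) and *Tagln* (1.65 ± 0.438), each a mean ± SD of 3 libraries. *Acta2* and *Myl9* did not differ beyond their spread, nor did *Myl9* and *Actn1* or *Actn1* and *Tpm1*. In the YT-AKO-labelled libraries, *Actb* (2669 ± 306 TPM) and *Actg1* (833 ± 158 TPM) were again first, followed by *Myl9* at 113 ± 13.6, *Flna* at 88.9 ± 18.5, *Tpm1* at 82.3 ± 85.2 and *Acta2* at 81.1 ± 20.1 TPM. *Myl9* and *Flna* overlapped, as did *Flna*, *Tpm1* and *Acta2*. *Actn1* (25.2 ± 11.1 TPM), *Myh11* (9.92 ± 4.43), *Cnn1* (2.98 ± 0.984) and *Tagln* (1.98 ± 0.698) came after them, and *Actn1* overlapped with *Myh11* and *Cnn1* with *Tagln*.

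Ratios of counts within a library do not depend on the scaling between libraries, and 9 were formed after the values of single genes were seen. *Actn1* had 4.62%, 4.40% and 3.43% of the *Actb* counts in YT-FF and 2.27%, 1.0998% and 2.31% in the YT-AKO-labelled libraries. *Flna* had 21.6%, 20.2% and 18.05% of the *Actb* counts in YT-FF and 11.0%, 10.8% and 13.3% in the YT-AKO-labelled libraries. Both crosslinkers were lower relative to β-actin in every mutant-labelled library than in any YT-FF library, with log2 differences of -1.20 and -0.77. *Actg1*, at 26.0% to 31.7% of *Actb* in YT-FF and 27.9% to 32.4% in the YT-AKO-labelled libraries, overlapped between the groups. *Myl9* had 46.6%, 46.5% and 48.5% of the *Acta2* counts in YT-FF and 57.6%, 88.5% and 83.3% in the YT-AKO-labelled libraries, a log2 difference of 0.67. *Myl9* to *Myh11* went from 67.4%, 70.9% and 83.7% to 125%, 386% and 140%, with YT-AKO 2 by far the highest. *Myh11* to *Acta2*, *Cnn1* to *Acta2*, *Acta2* to *Actb* and *Tpm1* to *Actb* overlapped between the groups. In a two-sided exact permutation test, the 4 ratios with no overlap had p = 0.1, the smallest that 3 libraries against 3 allow, and 0.225 after Benjamini-Hochberg adjustment over the 9 ratios. The genes of each of these 4 pairs differ in exon length, with 5533 bp for *Actn1*, 9457 bp for *Flna* and 2679 bp for *Actb*, and the part of length in the ratios was not tested.

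**Figure D4:**
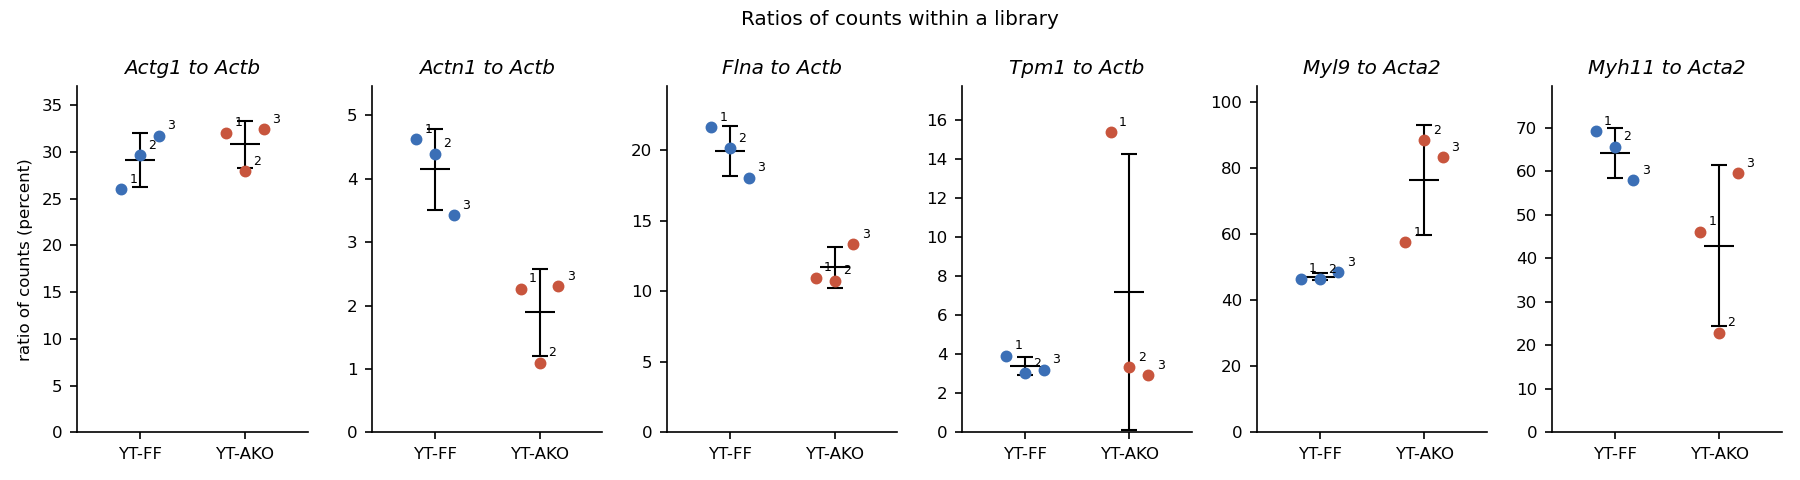
Ratios of counts within a library in percent (y axes, linear, from 0) for 6 pairs of members, in YT-FF libraries (blue) and YT-AKO-labelled libraries (red), with replicate numbers and the mean ± SD of 3 libraries. *Actn1* and *Flna* relative to *Actb* are lower in all 3 mutant-labelled libraries, and *Actg1* relative to *Actb* overlaps.

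The rest of the actin and contractile pathway was followed in 117 other genes from 7 lists, of which 113 were tested. At an adjusted p under 0.05 (edgeR, Benjamini-Hochberg), 12 were higher in the YT-AKO-labelled libraries and 13 were lower, with a median log2 fold change of -0.04. Among all tested genes, 12.6% were called higher and 9.01% lower. The counts of this set and of each list below are read against those shares. Among 17 other smooth muscle contractile genes, 2 were higher and 2 lower, with a median of 0.39. The muscle intermediate filament gene *Des* (desmin, log2 fold change 1.17) and the LIM protein gene *Csrp1* (0.53) were higher. *Des*, which skeletal muscle also expresses, had 66.8, 52.2 and 52.7 CPM in YT-FF and 166, 149 and 70.4 CPM in the YT-AKO-labelled libraries, with YT-AKO 1 the highest. With the length correction, 1 gene of this list was called higher and 1 lower. *Synpo2*, which encodes an actin-bundling protein of the Z-disc (-1.68), and *Ppp1r12b*, a targeting subunit of myosin phosphatase (-1.08), were lower. *Cald1*, which encodes the thin filament protein caldesmon, had a log2 fold change of 0.12 and *Mylk*, the kinase of the myosin light chain, overlapped between the groups with 66.3, 64.9 and 82.3 CPM in YT-FF and 93.0, 34.3 and 76.2 CPM in the YT-AKO-labelled libraries. *Mylk* was chosen after its values were seen.

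Among 18 paralogues of the members, 2 were higher, *Acta1* (2.67) and the transgelin relative *Tagln2* (0.52), and 0 were lower in edgeR, with 2 lower at an unadjusted p under 0.05, 1 in DESeq2 and 0 in limma-voom. Their median was 0.13. With the length correction, 0 were called in either direction in edgeR, with 3 higher at an unadjusted p under 0.05. *Acta1* is also one of the skeletal muscle markers and had 131, 41.1 and 81.8 CPM in YT-FF and 1109, 312 and 198 CPM in the YT-AKO-labelled libraries. It was highest in YT-AKO 1, as was the sum of these markers, of which it is itself a part. In YT-AKO 3 *Acta1* was above every YT-FF library, while the markers *Myh4* and *Tnnt3* had their lowest values there. The non-muscle myosin heavy chain *Myh9* had a log2 fold change of -0.72 (SE 0.299, edgeR with Benjamini-Hochberg adjustment, adjusted p = 0.112) and the tropomyosin *Tpm3* one of 0.13. *Actn4*, the other non-muscle α-actinin and chosen after its values were seen, had 235, 244 and 297 CPM in YT-FF and 202, 102 and 224 CPM in the YT-AKO-labelled libraries, with no overlap.

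Of 32 genes of actin filament assembly and turnover, 5 were higher and 2 lower, with a median log2 fold change of 0.17. *Gsn*, the severing and capping protein gelsolin (1.37), *Capg*, another capping protein (1.21), *Cfl1*, the severing protein cofilin-1 (0.85), and *Arpc1a*, a subunit of the Arp2/3 complex that branches filaments (0.79), were higher. The fifth was the capping protein gene *Capzb* (0.62), while *Capza1* (-0.76), which encodes its partner subunit, and the formin gene *Diaph2* (-0.78) were lower. With the length correction, 1 gene of this list was called higher and 1 lower, and its median was 0.076. Gelsolin, which many cell types of this tissue express, went from 6261 ± 835 to 16171 ± 4854 CPM (SD, n = 3). The monomer-binding genes *Tmsb4x* (0.97) and *Pfn1* (0.58) were not called. Of 18 genes that crosslink actin or tie it to the membrane, 1 was higher and 5 were lower, with a median of -0.49. *Sptbn1*, a spectrin (-1.03), *Ezr*, the membrane linker ezrin (-1.01), *Tjp1*, the junction scaffold ZO-1 (-1.002), and the leukocyte bundling protein gene *Lcp1* (-0.62) were lower, and *Pdlim7*, a PDZ and LIM scaffold on actin (1.002), was higher. The fifth lower gene was the scaffold *Iqgap1*. *Msn*, the ezrin relative moesin, had a log2 fold change of -0.73 and was not called. Thus the crosslinking members *Actn1* and *Flna* and most genes of this list had negative log2 fold changes, with 4 of 18 above 0. The genes of this list are long, with a median of 8001 bp of exons, and with the length correction its median log2 fold change was -0.05, with 2 genes called higher and 2 lower. For the members, the same correction gave medians of 0.45 for smooth muscle and 0.06 for the cytoskeleton.

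Of SRF and its cofactors, 0 of 6 tested genes were called in edgeR, with 1 lower at an unadjusted p under 0.05, 1 lower in DESeq2 and 0 called in limma-voom. *Myocd*, which encodes myocardin, was below the filter. *Srf* itself had 58.1, 64.8 and 66.8 CPM in YT-FF and 62.1, 44.7 and 67.7 CPM in the YT-AKO-labelled libraries, which overlapped, with a log2 fold change of -0.12 (edgeR, Benjamini-Hochberg adjusted p = 0.655). The cofactors *Mrtfa* (-0.29) and *Elk4* (0.10) were the most abundant of the others. Of 11 tested SRF targets outside the contractile genes, *Pdlim7* was higher, the LIM protein gene *Fhl1* (-0.88) was lower, and the median was -0.12. *Filip1l*, with a log2 fold change of -1.21, was not called (edgeR, Benjamini-Hochberg adjusted p = 0.0656). Immediate early genes, some of which SRF also drives, gave 2 higher of 8, *Atf3* (1.51) and *Jun* (1.18), and 0 lower in edgeR, with 1 lower at an unadjusted p under 0.05, 1 in DESeq2 and 0 in limma-voom. *Egr1*, an SRF-driven gene chosen after its values were seen, had a log2 fold change of -1.08 with no overlap in CPM (edgeR, Benjamini-Hochberg adjusted p = 0.0730).

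**Figure D5:**
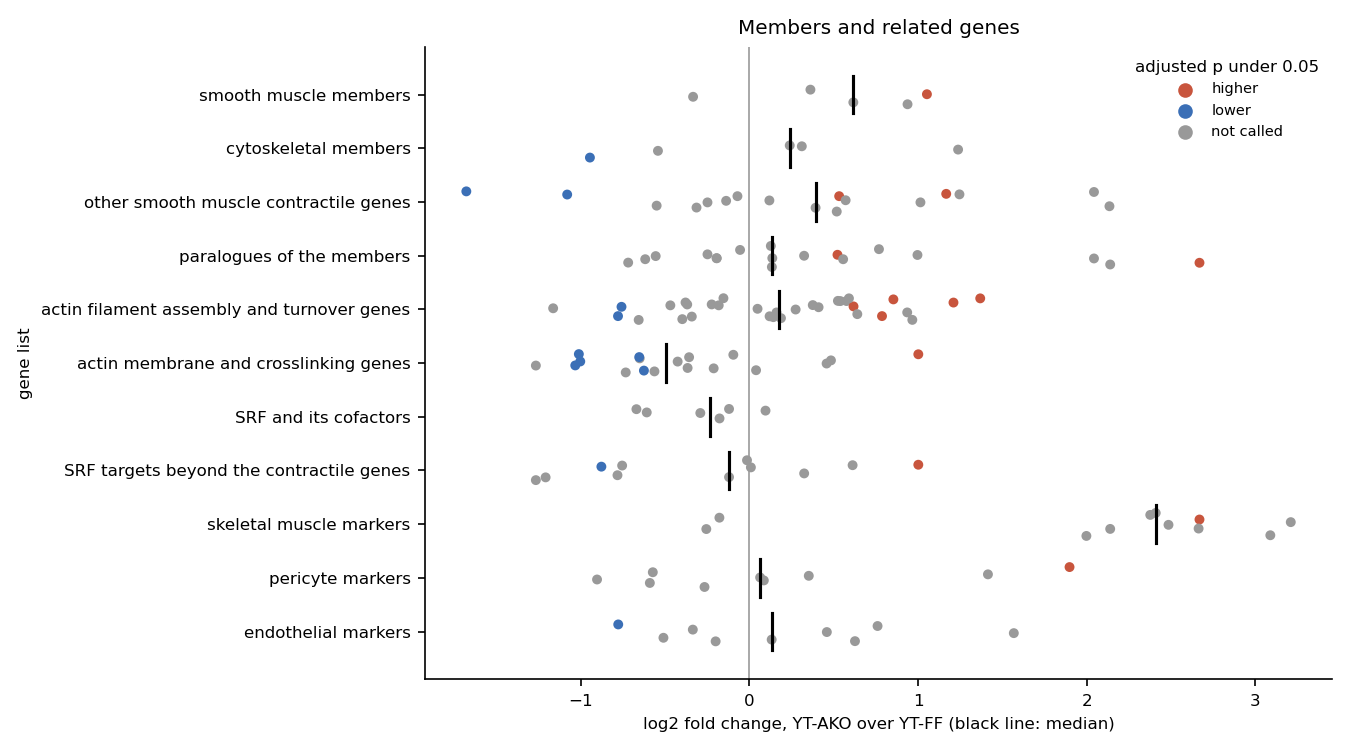
Log2 fold changes (x axis, YT-AKO over YT-FF) of the tested genes in each list (rows), with genes at an adjusted p under 0.05 in red where higher and blue where lower, other genes in grey and the median as a black line. Vertical scatter within a row has no meaning, and the list of membrane and crosslinking genes has the lowest median, -0.49, among the lists shown, which the length correction moved to -0.05.

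Because *Actb* is often the denominator of RT-qPCR, it was set beside other genes used in this way. The log2 fold change of *Actb* was 0.24 and did not pass the test, nor did that of *B2m* (0.36) or *Rplp0* (0.75). *Pgk1* (1.08), *Sdha* (0.78) and *Gusb* (0.61), an enzyme of glycolysis, one of the respiratory chain and one of the lysosome, were higher in the YT-AKO-labelled libraries (edgeR, Benjamini-Hochberg adjusted p = 0.0185, 0.0312 and 0.0340). *Rplp0*, the internal control of the paper's RT-qPCR, had 1020, 1017 and 1033 CPM in YT-FF and 1285, 2571 and 1289 CPM in the YT-AKO-labelled libraries. YT-AKO 2 was the highest, as it was for *Actb*.

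Markers of the cell types that hold smooth muscle genes were read beside the members. The summed level of 9 pericyte markers was 766 to 794 CPM in YT-FF and 580 to 721 CPM in the YT-AKO-labelled libraries, with no overlap, and 1 of 9, *Higd1b*, was called (1.90). The most abundant, *Mcam* and *Rgs5*, had log2 fold changes of -0.59 and -0.27. Of the 9, however, 5 had log2 fold changes above 0, with a median of 0.064, so sum and median went in different directions. The 9 endothelial markers summed to 791 to 861 CPM in YT-FF and to 766 to 1230 CPM in the YT-AKO-labelled libraries, with 5 of 9 log2 fold changes above 0 and a median of 0.13. *Kdr* (-0.78) was called lower, and *Cldn5* (1.57) and *Pecam1* (-0.20) were not called. Myoepithelium also expresses *Acta2*, *Myh11* and *Cnn1*. The summed level of epithelium and myoepithelium markers was 21.1, 21.4 and 26.7 CPM over 9 markers in YT-FF and 10.6, 10.3 and 10.6 CPM in the YT-AKO-labelled libraries. Only 4 of the 9 markers passed the filter on low counts, and the keratins of the list did not. *Oxtr* (-2.28) and *Trp63* (-1.14) were lower, while *Krt5* and *Krt17* were at 0 in every library. The mean went from 8.89 to 1.82 CPM for *Oxtr* and from 9.83 to 4.47 CPM for *Trp63*, so the fall of the sum lay mostly in these genes. *Epcam* (0.065) and *Cdh1* (-0.69) were not called and overlapped between the groups in CPM. Fibroblast and progenitor markers gave 3 higher and 1 lower of 10, and macrophage markers, led by *C1qa* (1.73) and *C1qb* (1.38), 2 higher of 7. The part of these cell types in the values of the members was not tested.

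Genes whose profile over the 6 libraries was nearest to that of the members were found by the root mean square difference in centred log2 CPM, over 11859 genes with at least 5 CPM on average. For the mean of the smooth muscle members they were *Nectin1* (0.075), *Hnrnpa0* (0.075), *Tmem35b* (0.076), *H2afx* (0.085) and *Tagln2* (0.086), against a median of 0.44 over all genes. Of the members themselves, *Acta2* (0.18) was nearest to this mean and *Myh11* (0.50) farthest of the smooth muscle members. For the mean of the cytoskeletal members they were *Tmem44* (0.030), *Cdca4* (0.053), *Sfpq* (0.057), *Zcchc9* (0.061) and *Nptxr* (0.062), against a median of 0.37. *Actb* (0.24) and *Actg1* (0.26) lay nearest to that mean among the cytoskeletal members, and *Tpm1* (0.75) and *Actn1* (0.54) farthest, so the mean of this group describes no single member closely. *Actb*, at 0.19, and *Actg1*, at 0.18, were closer to the smooth muscle mean than to that of their own group.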

How the data were processed

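The authors sequenced total RNA of scWAT (3 mice per genotype), aligned the reads to mm10 with HISAT2 and used featureCounts 2.0.1 on the GENCODE M25 annotation. The values they deposited are raw fragment counts of each gene. Strand was ignored, and fragments with several alignments or in several genes were not counted. Of 55401 genes, 55141 identifiers matched an annotated symbol, and 30027 had at least 1 count. Counts were fitted in R 4.3.3 with edgeR 4.0.16 (TMM, filterByExpr with a minimum count of 10 and a minimum total of 15, quasi-likelihood test, Benjamini-Hochberg over 16807 genes). Calls were made at an adjusted p under 0.05, and the biological coefficient of variation was 0.288. The length correction removed a spline (6 degrees of freedom) on log exon length in each library. Alternatives used DESeq2 1.42.0, limma-voom (limma 3.58.1), other scalings and filters, a replicate block and each library left out. The tests were checked on simulated counts. The members and the lists were chosen with earlier results of these data known. Genes named are the members, the targeted genes, up to 4 called genes with the largest changes and 2 other abundant genes per list, and the 5 genes nearest each mean profile. Others are said to be chosen after their values were seen, complete a count of 5 or fewer, or share exons or sequence with a member. The markers named as at or near 0 (*Tnnc2*, *Krt5* and *Krt17*) were also picked after their values were seen. The p-values measure the spread between these mice, and the low counts of *Tagln* and *Cnn1* limit their precision. Of the lists and genes that this rule covers, 1 list and 1 gene are not reported here.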

Additional observations from a re-analysis of the deposited data

How the results depend on the processing

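Replicate numbers did not pair the libraries (correlations of same-numbered deviations of 0.13, -0.12 and -0.09). With the replicate block, edgeR called 24 genes higher and 9 lower in all, 0 members and 0 other list genes in either direction (at an unadjusted p under 0.05, 1 member and 17 other genes higher, 1 and 23 lower), with *Myl9* at 0.99 and *Actn1* at -0.97 on the log2 scale. The block with the length correction also gave 0 members and 0 other list genes in either direction (unadjusted, 2 and 18 higher, 1 and 11 lower), with *Myl9* at 0.58 and *Actn1* at -0.79. The length correction alone left 0 members higher, 5 other list genes higher and 5 lower, and *Myl9* at 0.60. Chosen after the data were seen, the length correction without YT-AKO 2 turned *Acta2* to -0.051, *Myh11* to 0.074 and *Actb* to -0.041, took *Myl9* to 0.43 and *Tpm1* to 1.68, the last now called. With library totals alone, 0 members were higher and 2 lower, 5 other list genes were higher and 21 lower, *Myl9* was 0.69, *Flna* -0.88, *Actb* -0.10 and *Actg1* -0.019. That scaling left 1137 genes higher and 2828 lower in all, against 2121 and 1515. DESeq2 called 2 members and 22 other list genes lower, adding *Flna* (-0.54), and no filter on low counts called 2 members higher, adding *Tpm1* (1.24). In TPM, the log2 ratio of group means was -0.33 for *Acta2*, 0.26 for *Tagln*, -0.011 for *Cnn1*, 0.32 for *Myl9*, -0.93 for *Myh11*, -0.45 for *Actb*, -0.35 for *Actg1*, -1.54 for *Actn1* and -1.21 for *Flna*. With each library left out, 0 to 1 members were called higher and 0 to 2 lower, and 0 to 18 and 0 to 21 other list genes. *Myl9* stayed between 0.68 and 1.24, *Actn1* between -1.07 and -0.75, *Flna* between -0.61 and -0.43 and *Tpm1* between 0.20 and 1.62, and the log2 ratio of mean CPM of *Tpm1* between 0.19 and 1.62. Leaving out YT-FF 1, 2 or 3 left 0 members called (unadjusted, 1 higher each and 1, 1 and 2 lower), and over all genes 0, 0 and 704 higher and 0, 2 and 528 lower, which bears on every call in the report. Without YT-AKO 2, 21 other list genes were lower, without YT-AKO 3, 6. The cause of these shifts was not tested. Upper-quartile scaling, robust estimation, limma-voom and the stricter filter (10 counts in all 6 libraries) changed no member's call or direction.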
